A study of Gallus gallus with 12 samples.

Results

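The midbrain (m) and rhombomere 1 (r1), the first segment of the hindbrain, lie on either side of the mid-hindbrain boundary of the chick neural tube, and the 2 arrays labelled midbrain were compared with the 2 labelled Rhombomere 1. These are 4 of the 12 Affymetrix Chicken GeneChips of the study, which covers m and rhombomeres r1 to r5 with 2 arrays for each of 6 regions. The arrays were chosen by the labelled source of their tissue, and this pair of regions was taken because it spans the boundary and its arrays have like ratios of 3′ to 5′ control signal.

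The boundary between midbrain and hindbrain works as a signalling centre, the isthmic organiser. The homeobox gene OTX2 marks the forebrain and midbrain in front of it, GBX2 marks the hindbrain behind it, and each represses the other. FGF8, a secreted growth factor made at the boundary, patterns the tissue on both sides, with WNT1, the Engrailed genes EN1 and EN2 and the paired-box genes PAX2 and PAX5 in the same network. Midbrain tissue goes on to form the optic tectum dorsally, and r1 forms the cerebellum.

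The labels name no genotype and no treatment beyond the dissection, and all 4 samples came from neural tubes freed of ectoderm and mesoderm with the protease Dispase and cut by hand at the visible constrictions. The authors describe the midbrain tissue as its caudal portion, so that m does not stand for the whole midbrain here. The characteristics give stage HH10 of the Hamburger and Hamilton series, the growth protocol HH10 to HH11 and the methods HH11. Each array carried cDNA amplified from total RNA of 1 pool of tissue. The pools of a region were collected on different occasions by the same operator and are called set 1 and set 2, so n = 2 pools for each region and a p-value measures the spread between such pools. The number of embryos in a pool is not given in the sources used here. In pools of tissue, fewer cells that express a gene and less RNA per cell cannot be told apart.

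Signals are given here as multiples of the array's own median, so that a scaled signal of 1 is the median probe set of that array. Values under 0.174, the 20th percentile over all arrays, were set to this floor, and log2 was then taken. The probe sets tested were the 21731 with both pools of some region above the median of their array, of which 16747 have 1 gene symbol, for 10001 genes. Differences are m minus r1 on the log2 scale, with standard errors and p-values from limma over all 12 arrays, adjusted by Benjamini-Hochberg over the 21731 probe sets, with a threshold of 0.05. A scaled signal cannot be compared between genes, since each probe set binds with its own strength.

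The medians of the m and r1 arrays in the deposited units ran from 5.01 to 9.67. The ratio of 3′ to 5′ control signal, part of the choice of these regions and given as a description, was 7.15 to 13.3 for beta-actin, 0.957 to 1.48 for GAPDH, and for EF1a 1.98 and 2.46 in m and 2.21 and 3.8 in r1. Set 2 of r1 had the lowest median of the 4 arrays and the highest ratio for each of these controls. The beta-actin ratio was 9.53 and 13.3 in r2, but 181 and 70 in r3, 35.4 and 44.7 in r4 and 33.5 and 22 in r5. How far these ratios bear on the levels given below for r3 to r5, or on the spread between their pools, was not tested. Pools of 1 region differed by 2-fold or more at 10.4% of the probe sets in m and 11.9% in r1, but at 36.1% in r3, and the spread used for every p-value is shared over all 6 regions. The median standard deviation between pools on the log2 scale was 0.162 in m, 0.19 in r1, 0.184 in r2 and 0.495 in r3. That of r4 was 0.315 and that of r5 was 0.246, so both were also wider than those of m, r1 and r2. The authors' correlation measure, taken over genes chosen by the detection flags, gave another order. It put the m pair nearly as low as the r3 pair, which they found the least alike. A fit to the 6 arrays of m, r1 and r2 was made beside that to 12 arrays, and it leaves out r4 and r5 as well as r3. The log2 differences are the same in both fits, and only the estimate of the spread differs.

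The labels were checked first with the 3 markers. OTX2 had scaled signals of 152 and 136 in the m pools and 23.5 and 24.6 in the r1 pools, with a mean of 3.08 in r2. The m pools were far above the r1 pools, and the r1 pools were in turn above r2. The log2 difference of 2.58 (standard error 0.47) did not pass the threshold in the 12-array fit (limma adjusted p = 0.0834). It passed in 9 of 27 alternative settings, with adjusted p-values from 6.33e-06 to 0.952, the lowest in the fit to m, r1 and r2. A second OTX2 probe set lay at 86.6 and 82.0 in m and at 8.12 and 8.33 in r1, a log2 difference of 3.36 (limma adjusted p = 0.253, and 2.61e-05 to 1 over the alternatives).

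GBX2 ran the other way, with 59.5 and 79.8 in m and 199 and 229 in r1. Both r1 pools were above both m pools, and the r2 mean of 165 lay between. The GBX2 means of r3 and r4, 348 and 264, were above the r1 mean of 214, and that of r5 was 136.5. The log2 difference was −1.63 (standard error 0.25, limma adjusted p = 0.0373), and it passed in 15 of 27 alternatives, with adjusted p-values from 3.81e-05 to 0.753. GBX2 was lost without any single array of m, r1, r2 or r4. The m pools thus held a GBX2 signal well above the array median, and the r1 pools held OTX2 signal.

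FGF8 had scaled signals of 10.5 and 10.5 in m, 30.1 and 24.4 in r1 and a mean of 4.22 in r2. The r1 pools were above the m pools, and both regions were above r2. The log2 difference of −1.37 (standard error 0.72) did not pass (limma adjusted p = 1). Over the alternatives its adjusted p-value ran from 0.00264, in the fit to m, r1 and r2, to 1, and it passed in 2 of 27. How much tissue of the neighbouring side a pool held, and its part in the differences below, was not tested.

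**Figure D1:**
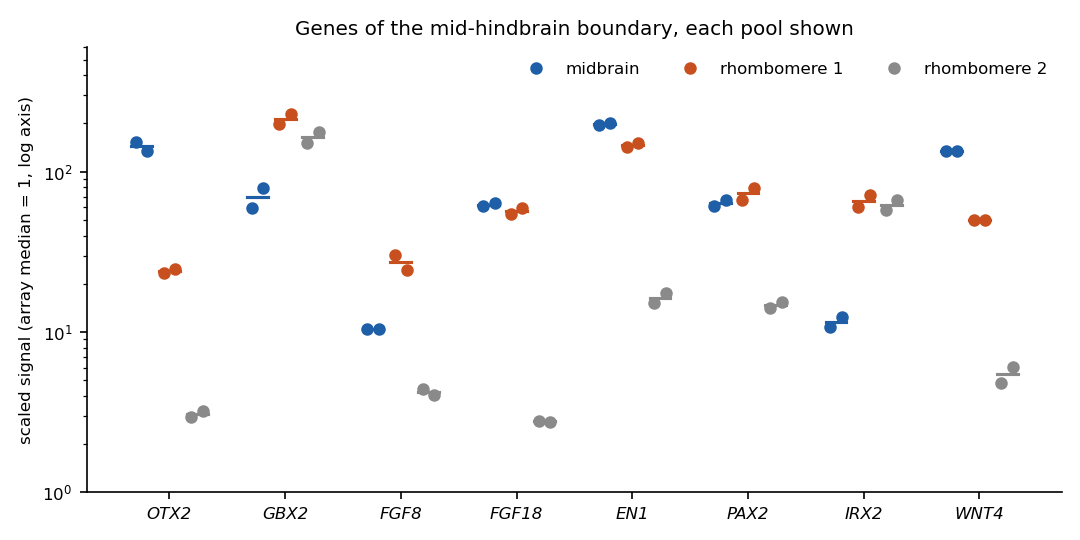
Scaled signal (array median = 1, log axis) of 8 genes of the mid-hindbrain boundary in each pool of midbrain, rhombomere 1 and rhombomere 2, with points for the 2 pools and a short line for their mean. OTX2 falls from 152 and 136 in m to 23.5 and 24.6 in r1, GBX2 and IRX2 run the other way, and EN1, PAX2 and FGF18 lie close together in m and r1 and lower in r2.

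Over all genes the neighbours differed at few probe sets. Of 21731 probe sets, 4 (0.0184%) were higher in m and 18 (0.0828%) higher in r1 by limma at an adjusted p under 0.05, together 22 (0.101%), each by 2-fold or more. At an unadjusted p under 0.05 there were 352 and 413. The 4 and 18 probe sets include 3 and 15 genes with 1 symbol, and the other 4 probe sets have no single symbol. Taking for each gene the probe set with the highest mean signal, 3 of 10001 genes (0.03%) were higher in m and 13 (0.13%) in r1. In the fit to the arrays of m, r1 and r2, 83 probe sets (0.382%) were higher in m and 127 (0.584%) in r1, which include all 4 and all 18 of the 12-array fit. Without both r3 arrays there were 35 (0.161%) and 69 (0.318%).

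The count rests on having 2 pools on each side. Without either m array or either r1 array, 0 probe sets were higher in m and 1 was higher in r1, which was SHISA3 each time. The median log2 difference over all probe sets was −0.009. Both m pools lay above both r1 pools at 20.4% of the probe sets, and both r1 pools above both m pools at 20.5%. The median absolute log2 difference between pools of the same region was 0.229 in m and 0.268 in r1, against 0.256 to 0.327 between a pool of m and a pool of r1.

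**Figure D2:**
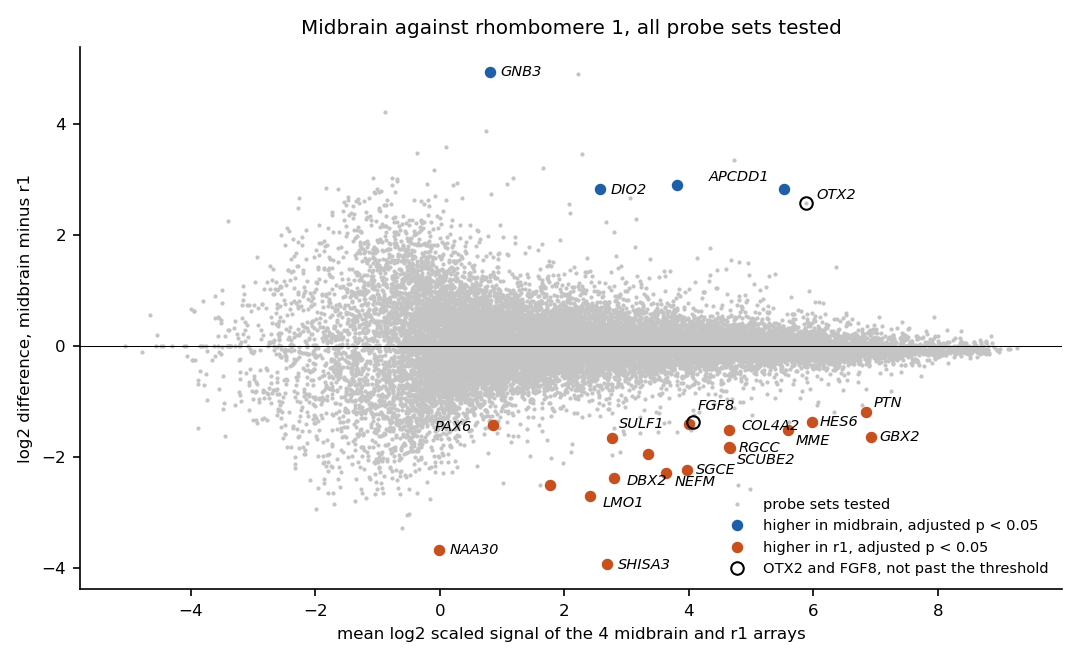
Log2 difference (m minus r1) of each of the 21731 probe sets against the mean log2 scaled signal of the 4 m and r1 arrays, with the 4 probe sets higher in m in blue, the 18 higher in r1 in orange and OTX2 and FGF8 as open circles. Points without a gene name have no single symbol, and the scatter of all probe sets is wider at low signal.

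Higher in the midbrain were 3 named genes. APCDD1, which encodes a membrane glycoprotein that inhibits WNT signalling, had scaled signals of 120 and 125 in m, 19.9 and 14.9 in r1 and a mean of 2.44 in r2. The groups did not overlap, and the level stepped down from m through r1 to r2. Its log2 difference was 2.83 (standard error 0.34, limma adjusted p = 0.00971), and a second, dimmer APCDD1 probe set had a log2 difference of 3.88 that did not pass. DIO2, the deiodinase that converts thyroxine into the active thyroid hormone, was at 16.4 and 15.4 in m and at 2.51 and 2.01 in r1. Both m pools were well above r1, while the means in r2, r4 and r5 were 5.09, 10.2 and 32.8, so that m was not the region with the highest level. The log2 difference of DIO2 was also 2.83 (standard error 0.33, limma adjusted p = 0.00971).

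GNB3, a beta subunit of heterotrimeric G proteins, had the largest difference of the 3. It was at 9.93 and 9.73 in m and at 0.583 and 0.165 in r1, the last of these under the floor. The r2 to r5 means were 0.801 to 2.29, so that m stood above all 5 rhombomeres. The log2 difference was 4.95 (standard error 0.78, limma adjusted p = 0.0396). A second GNB3 probe set near the array median differed by 2.67 in the same direction and did not pass. Without 1 array of m or r1, the adjusted p-values of these 3 genes were 0.0948 to 0.753, with log2 differences of 2.62 to 5.82.

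Of the 15 named genes higher in r1, 5 are regulators of transcription. LMO1, a LIM-only protein that acts as a transcriptional cofactor, had 1.86 and 2.36 in m and 13.5 and 13.9 in r1 (log2 difference −2.71, standard error 0.37, limma adjusted p = 0.0201). Its r2 mean was 22.5, above both r1 pools. DBX2, a homeobox gene of progenitors at the middle of the dorsoventral axis, had 2.65 and 3.53 in m and 15.4 and 16.5 in r1 (−2.39, standard error 0.32, limma adjusted p = 0.0161). Here r1 was the highest of the 6 regions, with means of 3.94 to 8.87 in r2 to r5. HES6, a factor that promotes neurogenesis by opposing HES1, had 33.4 and 45.7 in m and 99.2 and 102 in r1 (−1.37, standard error 0.22, limma adjusted p = 0.0396). The mean of r2 was 100.5, at the level of r1.

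PAX6, a paired-box gene of the forebrain, eye and hindbrain, was near the array median in m, at 1.02 and 1.18, and at 2.91 and 2.99 in r1. The r1 pools lay close together and above m, yet far under the r2 mean of 24.8 and the 79.2 to 153 of r3 to r5. Its log2 difference was −1.42 (standard error 0.21, limma adjusted p = 0.0278). GBX2, the fifth of these regulators, is given above.

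SHISA3 had the largest difference among the genes past the threshold in r1 and the lowest adjusted p-value of the comparison. It belongs to the Shisa family, whose founding member in the frog holds receptors for WNT and FGF in the endoplasmic reticulum. Its scaled signal was 1.73 and 1.57 in m and 21.5 and 29.6 in r1, and the r2 mean was higher still at 47.9. The r3 to r5 means were 5.05 to 11.7, so that the level peaked in r2. The log2 difference was −3.94 (standard error 0.29, limma adjusted p = 2.91e-04). It passed in 26 of 27 alternatives and in all 12 that leave out 1 array, with adjusted p-values of 8.46e-09 to 0.12 over the 27, and the exception was a plain linear model with no sharing of the spread between probe sets.

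Some genes of secreted or extracellular proteins were higher in r1. SCUBE2, a secreted protein that helps to release Sonic hedgehog from the cells that make it, had 11.7 and 15.1 in m and 46.4 and 47.4 in r1 (log2 difference −1.82, standard error 0.27, limma adjusted p = 0.0278). All 4 of its other probe sets differed in the same direction and did not pass. SULF1, an enzyme that removes sulphate groups from heparan sulphate, had 9.88 and 9.88 in m and 23.8 and 28.8 in r1 (−1.41, standard error 0.22, limma adjusted p = 0.0404). Its 5 other probe sets ran the same way, from −1.73 to −1.12. PTN, the heparin-binding growth factor pleiotrophin, had 73.5 and 78.9 in m and 161 and 185 in r1 (−1.18, standard error 0.17, limma adjusted p = 0.0278). The r2 means were 52.5, 43.1 and 158 for SCUBE2, SULF1 and PTN, so that the first and the second lay above r1 and PTN lay just under it. The PTN means of r3 to r5 were 189 to 211, above the r1 mean of 173.

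COL4A2, a chain of the type IV collagen of basement membranes, had 15.1 and 14.6 in m and 38.4 and 47.0 in r1 (−1.52, standard error 0.23, limma adjusted p = 0.0343). Its r2 mean was lower at 20.8, but its r5 mean of 53.2 was above the r1 mean of 42.7. Of its 3 other probe sets, 2 also differed in the direction of r1. COL4A1, the partner chain, had 7.80 and 8.25 in m and 19.8 and 21.6 in r1, a log2 difference of −1.37 that did not pass (limma adjusted p = 0.233). MME, the cell-surface peptidase neprilysin, had 29.5 and 27.2 in m and 76.1 and 86.7 in r1 (−1.52, standard error 0.24, limma adjusted p = 0.0404). With means of 6.94 to 22.8 in r2 to r5, MME was highest in r1 and next highest in m.

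NEFM, the medium neurofilament protein of axons, was at 4.65 and 6.80 in m and at 26.9 and 28.1 in r1. The r2 to r5 means were higher, from 83.1 to 209, so that m was the lowest of the 6 regions and r1 the next. The log2 difference was −2.29 (standard error 0.27, limma adjusted p = 0.00971). RGCC, a regulator of the cell cycle, had 15.3 and 11.8 in m and 43.6 and 52.4 in r1 (−1.83, standard error 0.20, limma adjusted p = 0.00971), with 93.4 in r2.

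For 2 of the genes higher in r1, brighter or equally bright probe sets did not show the difference. SGCE, the membrane protein epsilon-sarcoglycan, had 6.64 and 7.89 in m and 32.2 and 36.0 in r1 on 1 probe set (−2.24, standard error 0.35, limma adjusted p = 0.0396), while its other 2 differed by −0.0997 and −0.024. NAA30, the catalytic subunit of an N-terminal acetyltransferase, had 0.204 and 0.376 in m and 3.54 and 3.54 in r1 (−3.67, standard error 0.51, limma adjusted p = 0.0201). Its brightest probe set had 92.6 and 96.2 in m and 90.1 and 104 in r1, and its 4 other probe sets differed by −0.454 to 0.46. Over all 15 genes, 9 have other probe sets that were tested, and 20 of these 23 differed in the direction of r1, with 0 past the threshold by limma and 10 at an unadjusted p under 0.05. Among all 21731 probe sets, 352 were higher in m and 413 in r1 at that unadjusted level.

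Across the rhombomeres the genes fell into a few shapes. Of the 18 probe sets higher in r1, 10 had an r2 mean beyond that of r1, 7 had one between m and r1, and 1 had one beyond that of m. Of the 4 higher in m, r2 lay beyond r1 in 2 and between m and r1 in 2. Most of the probe sets higher in r1 were thus not at their highest in r1, and their r2 level is given as a description with no test. Apart from SHISA3, these genes did not pass in a fit without 1 of the m or r1 arrays. Their log2 differences kept their sign there, which was fixed by the choice of genes whose pools do not overlap.

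**Figure D3:**
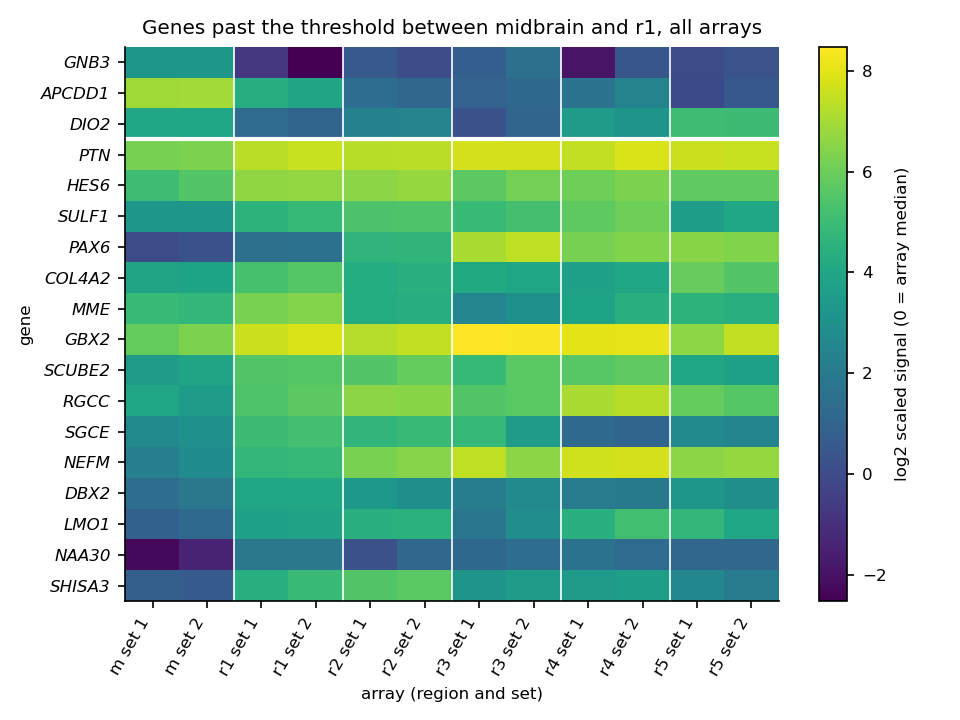
Log2 scaled signal (colour, 0 = array median) of the 18 named genes past the threshold between m and r1 on each of the 12 arrays, ordered by their log2 difference, with the 3 genes higher in m above the white line. The 2 pools of m and of r1 have like colours for most genes. NEFM and PAX6 go on to higher levels in r2 to r5, and RGCC in r2 and r4 but hardly in r3 and r5. MME and DBX2 are highest in r1.

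The gene lists below follow the known network of the boundary and the tissues next to it. They were chosen with earlier results of these data known, so that their counts and medians are a description. In each, a gene is given by the probe set with the highest mean signal, the members not named by the annotation or under the filter are left out, and the values stand beside those of all 10001 genes, of which 45.5% had a log2 difference above 0 and 54.3% below, with a median of −0.026. Of all 21731 probe sets, 352 were higher in m and 413 in r1 by limma at an unadjusted p under 0.05 in the 12-array fit. The unadjusted counts of the lists stand beside these. In the fit to m, r1 and r2, 0.47% of genes were higher in m and 0.78% higher in r1. Members named as passing only in that fit did not pass in the 12-array fit.

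Of 21 midbrain and tectal factors listed, 7 were tested, 5 with higher values in m and 2 in r1, with a median log2 difference of 1.02. By limma 0 passed in the 12-array fit (3 higher in m at an unadjusted p under 0.05), and 3 were higher in m in the fit to m, r1 and r2, namely OTX2, MAB21L2 and MEIS2. MAB21L2, a gene of the tectum and eye, had 26.2 and 25.0 in m, 1.24 and 0.583 in r1 and 0.63 in r2, which was the widest gap of the list (log2 difference 4.91, standard error 0.86, limma adjusted p = 0.073). Its level in all 5 rhombomeres was near the array median or under it. MEIS2, a homeobox gene that promotes tectal fate in the chick, had 18.5 and 22.6 in m and 12.0 and 8.40 in r1, with 18.2 in r2. DMBX1, a homeobox gene of the midbrain, had 3.14 and 3.17 in m and 1.02 and 1.06 in r1, a log2 difference of 1.60 that did not pass (limma adjusted p = 1). PAX7, which marks the dorsal midbrain, was at 4.38 and 5.30 in m and at 5.70 and 5.87 in r1.

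Of 13 genes listed for the isthmus, 7 were tested, 0 passed in the 12-array fit by limma (also 0 at an unadjusted p under 0.05) and the median was 0.258. Both m pools lay above both r1 pools for 4 of the 7, against 19.6% of all genes, and the reverse held for 0. EN1 had 197 and 202 in m, 143 and 152 in r1 and a mean of 16.3 in r2 (log2 difference 0.44, limma adjusted p = 1). PAX2 had 61.5 and 67.0 in m, 66.9 and 79.7 in r1 and 14.7 in r2. For both genes the gap from r1 to r2 was wider than the gap from m to r1. LMX1B, a LIM-homeobox gene needed for the isthmic signals, had 10.7 and 12.3 in m and 12.1 and 12.5 in r1, and these pools overlapped. SP8, a zinc-finger factor, had 86.9 and 92.0 in m, 49.8 and 53.1 in r1 and 25.2 in r2, and was higher in m in the fit to m, r1 and r2. Its means in r4 and r5 were 58.75 and 74.5, between those of r1 and m. PAX5 and WNT1 were under the filter, and EN2 was not analysed here since the annotation does not name it.

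Among 8 anterior hindbrain factors tested of 20 listed, 6 had higher values in r1 and the median was −0.384. GBX2 was the 1 past the threshold in the 12-array fit. IRX2, an Iroquois homeobox gene needed with FGF8 for the cerebellum in the chick, had 10.8 and 12.4 in m, 60.4 and 71.8 in r1 and 62.2 in r2. The r1 pools were at the r2 level and well above m, and the means of r3 to r5 were 11.8 to 14.2. Its log2 difference of −2.51 (standard error 0.56) did not pass with all 12 arrays (limma adjusted p = 0.233) and passed in the fit to m, r1 and r2. The related IRX1 had 89.3 and 90.1 in m and 96.2 and 118 in r1. ZIC1, a zinc-finger gene of the dorsal neural tube, had 34.1 and 40.3 in m and 35.9 and 36.3 in r1, and these pools overlapped.

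The FGF ligands divided. Of 19 listed, 8 were tested, 6 with higher values in m, and 0 passed with all arrays by limma, also at an unadjusted p under 0.05. FGF18, which is made on both sides of the boundary with FGF8, had 61.3 and 63.5 in m, 54.5 and 59.5 in r1 and 2.77 in r2. The m pools were just above the r1 pools, and both regions were far above r2. FGF19 had 2.01 and 2.78 in m and 1.68 and 1.36 in r1. FGF13, an intracellular member of the family, had 15.0 and 16.3 in m and 8.75 and 10.6 in r1.

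Of the 20 FGF receptors and feedback genes tested, 12 had higher values in r1, with a median of −0.14 and 0 past the threshold by limma (1 higher in r1 at an unadjusted p under 0.05). SPRY2, an inhibitor of FGF signalling that FGF8 switches on, had 20.7 and 21.2 in m, 49.1 and 50.2 in r1 and 31.5 in r2 (log2 difference −1.24, standard error 0.26, limma adjusted p = 0.173), and it passed in the fit to m, r1 and r2. The direction was that of FGF8. Near the array median, SPRY1 had 1.24 and 1.73 in m and 2.59 and 4.64 in r1 (log2 difference −1.25), and FLRT2 had a log2 difference of −1.75 with an m pool under the floor; neither passed. DUSP6, a phosphatase that acts on ERK, had 43.3 and 48.2 in m and 56.8 and 59.5 in r1. IL17RD, also called SEF, had 20.1 and 21.3 in m and 28.8 and 30.1 in r1. FLRT3 and DUSP4 ran the other way. FLRT3 had 74.8 and 64.5 in m and 51.7 and 50.5 in r1, and DUSP4 had 23.5 and 22.9 against 17.7 and 18.0. Both r1 pools lay above both m pools for 9 of the 20 genes, against 22.4% of all genes. The reverse held for 2, against 19.6%. The receptors FGFR2 and FGFR3 had log2 differences of −0.15 and 0.05.

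Most WNT ligands had higher values in m. Of 18 listed, 12 were tested, 8 with higher values in m, 7 of them with both m pools above both r1 pools, against 19.6% of all genes. The median was 0.508, 0 passed with all arrays by limma (5 higher in m at an unadjusted p under 0.05), and WNT2B, WNT3A and WNT4 were higher in m in the fit to m, r1 and r2. WNT4 had 134 and 135 in m, 50.3 and 49.7 in r1 and 5.46 in r2, so that the level stepped down from m to r1 and again from r1 to r2. WNT3A, a ligand of the roof plate, had 35.2 and 39.3 in m, 10.7 and 11.2 in r1 and 4.22 in r2 (log2 difference 1.76, standard error 0.33, limma adjusted p = 0.0954). WNT2B had 19.6 and 19.8 in m, 4.49 and 3.62 in r1 and 1.40 in r2 (2.29, standard error 0.78, limma adjusted p = 0.91). WNT11 and WNT7B ran the other way, WNT11 with 9.99 and 10.3 in m and 12.2 and 13.1 in r1. WNT7B, near the array median, had 0.987 and 0.611 in m and 1.57 and 1.59 in r1 (log2 difference −1.02) and did not pass. WNT7A had the largest log2 difference, 3.18, but an r1 pool under the floor, and it did not pass (limma adjusted p = 0.546).

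The R-spondins, secreted proteins that strengthen WNT signalling, had higher values in m. RSPO2 had 12.6 and 15.1 in m and 3.01 and 2.82 in r1, RSPO1 had 3.32 and 3.57 against 1.62 and 1.81, and RSPO3 had 17.9 and 16.8 against 8.94 and 8.51. The groups did not overlap for any of these 3 genes, and RSPO2 and RSPO3 passed in the fit to m, r1 and r2. RSPO3 was higher again in r2, with a mean of 48.5. Over all 28 WNT modulators and targets tested, 12 had higher values in m and 16 in r1, with a median of −0.087 and 0 past the threshold by limma (2 higher in m and 4 in r1 at an unadjusted p under 0.05). The targets AXIN2 and NOTUM, whose transcription WNT signalling raises, had log2 differences of 0.27 and 0.36. SFRP2, a secreted WNT antagonist, had 71.7 and 78.8 in m and 104 and 126 in r1, and was higher in r1 in the fit to m, r1 and r2. LGR5, a receptor for R-spondins, was under the filter.

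**Figure D4:**
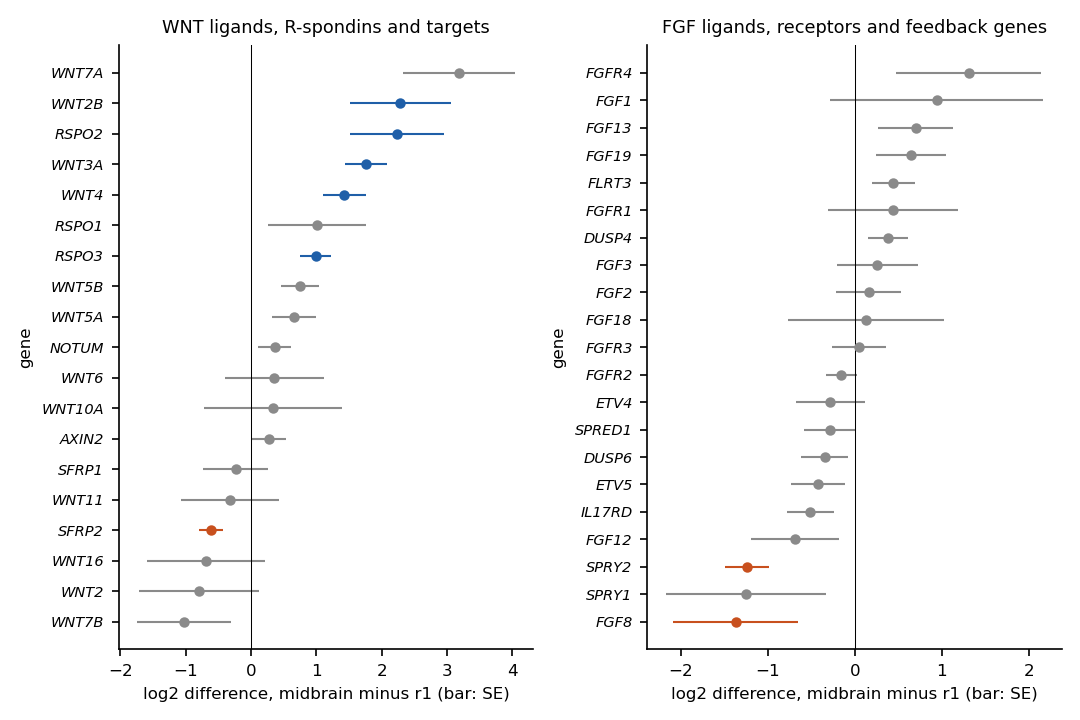
Log2 difference (m minus r1) with its standard error for genes of WNT signalling (left) and FGF signalling (right), with 1 probe set a gene. All WNT and FGF ligands that passed the filter are shown. The other genes are a chosen part of those tested, without FZD1, FZD7, FZD8, DKK3, FLRT2 and others that were higher in r1. Of all 28 WNT modulators and targets tested, 12 had higher values in m and 16 in r1. Coloured points passed in the fit to the arrays of m, r1 and r2 (blue higher in m, orange higher in r1), grey points did not, and 0 of the genes shown passed in the 12-array fit, from which the standard errors come.

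For BMP and Hedgehog genes the medians were near that of all genes. The 18 BMP genes tested were ligands, receptors and antagonists together with ID1, ID2, ID4, SMAD6 and SMAD7. Of these 18, 0 passed by limma in either fit (1 higher in m and 2 in r1 at an unadjusted p under 0.05 in the 12-array fit), with a median of −0.115. BMP2 had 8.55 and 8.02 in m and 4.45 and 4.01 in r1, and the activin antagonist FST had 3.17 and 3.44 in m, 5.41 and 6.79 in r1 and 19.2 in r2. Of 16 Hedgehog and ventral genes, SULF1 was the 1 past the threshold, and the median was 0.002. PTCH1, the Hedgehog receptor and a target of the pathway, had 31.5 and 34.0 in m and 44.1 and 48.9 in r1. The coreceptor CDON, higher in r1 in the fit to m, r1 and r2, had 17.5 and 18.8 against 30.1 and 27.4. For CDON, 3 of 4 probe sets tested differed in the direction of r1. SHH itself was near the array median. The 11 dorsal genes, some of them on other lists too, had a median of −0.216, and 0 passed in the 12-array fit by limma (2 in each direction at an unadjusted p under 0.05).

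The neural crest, the migratory cells that leave the dorsal neural tube, was measured by 22 genes, of which 20 had higher values in r1. For 15 of them both r1 pools were above both m pools, against 22.4% of all genes, and the median was −0.341. By limma 0 passed in the 12-array fit (5 higher in r1 at an unadjusted p under 0.05), and MSX2 was the 1 higher in r1 in the fit to m, r1 and r2. MSX2, a homeobox gene of dorsal cells, had 1.29 and 1.45 in m, 3.69 and 4.75 in r1 and 8.21 in r2. SNAI2, which crest cells need to leave the epithelium, had 5.00 and 5.42 in m, 7.80 and 13.4 in r1 and 36.3 in r2. SOX10 had 11.2 and 13.5 in m, 18.4 and 22.2 in r1 and 42.9 in r2. For these 3 genes r1 lay between m and r2. FOXD3 differed between the r1 pools, at 15.9 and 6.01, against 4.75 and 4.15 in m, and SNAI1 had 3.65 and 3.59 in m and 1.66 and 3.28 in r1.

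Neurons and their precursors were represented by 18 genes of neuronal differentiation, 14 of which had higher values in r1. For 11 of the 18, both r1 pools lay above both m pools, against 22.4% of all genes. The median of −0.481 was the lowest of the 29 lists. NEFM was the 1 past the threshold by limma (0 higher in m and 4 in r1 at an unadjusted p under 0.05). NEFL and DCX were also higher in r1 in the fit to m, r1 and r2. NEFL, the light neurofilament protein, had 4.16 and 5.00 in m and 7.91 and 9.89 in r1. DCX, a microtubule protein of young neurons, had 46.9 and 49.9 against 73.8 and 69.6, and 3 of its 4 probe sets tested differed in that direction. TUBB3, the neuronal tubulin, had 36.5 and 33.0 in m and 39.7 and 25.0 in r1, which overlap. NEUROG2, a proneural gene, had 1.60 and 3.02 in m and 2.88 and 3.83 in r1, which overlap too.

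In the Notch pathway, with 14 genes tested and a median of 0.012, HES6 was the 1 past the threshold. HEY1, a Notch target, had 59.8 and 58.8 in m and 93.7 and 97.4 in r1 and was higher in r1 in the fit to m, r1 and r2. DNER, a neuronal Notch ligand, had 18.9 and 19.1 in m, 6.96 and 8.96 in r1 and 4.04 in r2 and was higher in m in that fit. HES5 and NOTCH1 had log2 differences of 0.32 and −0.09. Of 17 progenitor genes, PAX6 was the 1 past the threshold, the median was 0.028, and the forebrain and eye list of 10 genes also had PAX6 past the threshold, with a median of 0.166. The progenitor genes SOX3, NES and VIM had log2 differences of 0.50, −0.09 and −0.12. FABP7, the fatty acid binding protein of radial glia, had 172 and 178 in m and 247 and 266 in r1 and was higher in r1 in the fit to m, r1 and r2.

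Of 24 axon guidance genes, 16 had higher values in r1, against 54.3% of all genes, with a median of −0.387. Both r1 pools lay above both m pools for 12 of them, against 22.4% of all genes. The reverse held for 6, against 19.6%. By limma 0 passed in the 12-array fit (1 higher in m and 5 in r1 at an unadjusted p under 0.05), while 5 were higher in r1 and 1 in m in the fit to m, r1 and r2. NRP2, a semaphorin receptor, had 17.4 and 18.3 in m and 45.1 and 33.6 in r1, and PLXNA2, its plexin partner, had 14.4 and 15.0 against 26.6 and 34.4. SLIT2, a repellent secreted at the midline, had 10.5 and 11.6 in m and 19.1 and 18.6 in r1, SEMA3A had 5.74 and 5.66 against 11.3 and 10.6, and DRAXIN, a repellent of commissural axons, had 9.68 and 9.40 in m, 15.4 and 17.1 in r1 and 73.2 in r2. SEMA5B, a semaphorin anchored in the membrane, was the 1 higher in m, with 46.1 and 41.8 against 17.5 and 12.9 (log2 difference 1.55, standard error 0.28, limma adjusted p = 0.0834). Its 4 probe sets all differed in the direction of m. The SEMA5B mean was 42.95 in r5, close to the 43.97 of m.

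Of 24 cadherins and other adhesion genes, 18 had higher values in r1, with a median of −0.382 and 0 past the threshold by limma (1 higher in m and 3 in r1 at an unadjusted p under 0.05). PCDH9, a protocadherin, had 0.529 and 1.40 in m, 5.94 and 3.83 in r1 and 11.7 in r2 and passed in the fit to m, r1 and r2. CDH2, the N-cadherin of the neural tube, had 58.3 and 70.9 in m and 61.5 and 71.8 in r1, which overlap. Among 13 Eph receptors and ephrins, which keep cells of neighbouring segments apart, the median was −0.069 and 0 passed by limma (1 and 2 at an unadjusted p under 0.05). EPHA7 had 3.08 and 2.40 in m, 5.77 and 5.68 in r1 and 36.6 in r2, and EPHB3 had 21.9 and 20.9 in m and 10.6 and 11.3 in r1, and these 2 passed in the fit to m, r1 and r2 in opposite directions.

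Hox genes, which set the identity of the segments behind r1, were under the array median in both regions. Of 14 listed, 4 were tested, and on the 4 arrays of m and r1 none of their signals was above the array median. HOXA2 had 0.109 and 0.067 in m and 0.0254 and 0.141 in r1, all under the floor, against a mean of 5.72 in r2. Of 18 Hox cofactors and genes of the retinoid pathway, 0 passed in the 12-array fit by limma (2 in each direction at an unadjusted p under 0.05) and the median was 0.075. STRA6, the receptor that takes up retinol, had 26.8 and 25.9 in m and 11.6 and 15.4 in r1, and RDH10, which starts the conversion of retinol to retinoic acid, had 38.8 and 34.6 against 21.5 and 23.1. These 2 and MEIS2 were higher in m in the fit to m, r1 and r2. The RDH10 mean was higher in r5, at 59.0, than in m, at 36.7. CYP26C1, an enzyme that breaks down retinoic acid, had 9.27 and 6.87 in m and 8.39 and 9.65 in r1, which overlap, and a mean of 119 in r2.

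**Figure D5:**
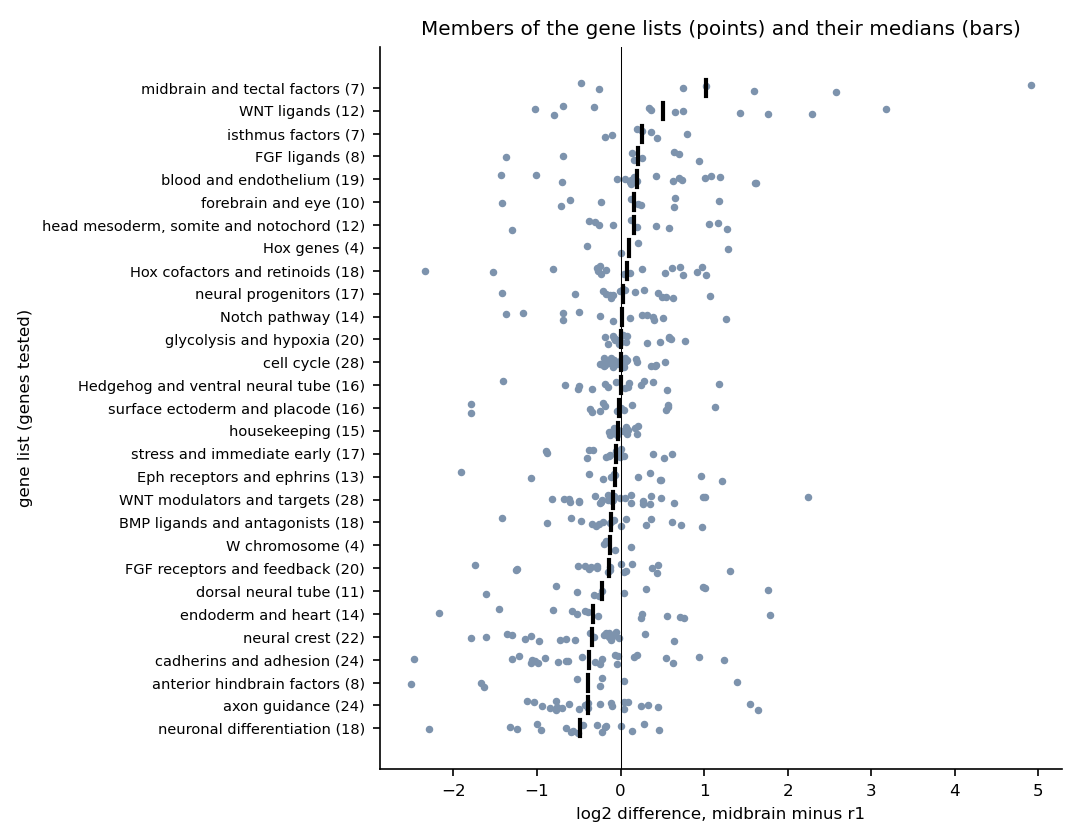
Log2 difference (m minus r1) of each tested member (points) of the 29 gene lists, with the median of each list (black bar) and the number of genes tested in parentheses. The lists run from neuronal differentiation (median −0.481) at the bottom to midbrain and tectal factors (median 1.02) at the top, and points of every list except those of the housekeeping and W chromosome genes spread beyond 0.5 in at least 1 direction.

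Other tissues that the pools could hold were checked with 4 lists, and 0 of their genes passed in the 12-array fit by limma. At an unadjusted p under 0.05 there was 1 in each direction for blood and endothelium and for endoderm and heart, and 0 for the other lists. Over the 24 genes named for head mesoderm, somite and notochord, 12 of them tested, the summed scaled signal was 127 and 136 in m and 137 and 150 in r1, of which COL2A1, also made by neuroepithelium, gave 66.1 and 74.3 in m and 70.1 and 79.6 in r1. MYOD1, MYF5, TBX6 and PAX9 were under the filter. The 20 genes of surface ectoderm and placodes, 16 of them tested, summed to 277 and 272 in m and to 294 and 301 in r1, with TP63 near the array median and EPCAM at 115 and 113 in m and 111 and 111 in r1. The 25 of endoderm and heart, 14 of them tested, summed to 166 and 162 in m and to 134 and 149.6 in r1, mostly from TNNC1, and SOX17, NKX2-5 and GATA6 were under the filter.

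The 23 genes of blood and endothelium summed to 39.1 and 47.9 in m and to 57.1 and 61.1 in r1, and without EGFL7 to 21.1 and 26.0 in m and to 19.6 and 18.2 in r1. Of the 19 tested, 15 had higher values in m and 4 in r1, with a median of 0.201. Both m pools lay above both r1 pools for 6, against 19.6% of all genes, and the reverse held for 2, against 22.4%. EGFL7, an endothelial secreted protein, had 17.9 and 22.0 in m, 37.6 and 42.9 in r1 and 76.4 in r2. It was higher in r1 in the fit to m, r1 and r2, and 2 of its 3 probe sets tested differed in that direction. The endothelial genes KDR, TEK and FLT1 stayed under the array median on all 4 arrays, and VWF and TAL1 were under the filter. The part of such cells in COL4A2 and the other basement membrane genes higher in r1 was not tested.

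Lists for general states of the tissue had medians near that of all genes. Of 28 cell cycle genes 0 passed by limma in either fit, nor in the 12-array fit at an unadjusted p under 0.05, with a median of 0.007, and the same counts of 0 held for the housekeeping list of 15, with a median of −0.025. The 20 genes of glycolysis and hypoxia had a median of 0.01. Both m pools lay above both r1 pools for 8 of them, against 19.6% of all genes, and the reverse held for 2, against 22.4%. LDHA, lactate dehydrogenase A, had 55.0 and 62.1 in m and 38.1 and 40.2 in r1. It was higher in m in the fit to m, r1 and r2. Among 17 stress and immediate early genes, 12 had higher values in r1 with a median of −0.05, and GADD45G was higher in r1 in that fit. The 4 genes of the W chromosome, which female birds carry, had log2 differences of −0.19 to 0.13.

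Genes outside the lists that passed in the fit to m, r1 and r2 extend both directions. On the midbrain side, PAPPA, a protease that frees insulin-like growth factors, had 46.0 and 48.8 in m and 19.7 and 14.0 in r1. For PAPPA, 3 of 4 probe sets tested differed in the direction of m. TNFRSF19, a receptor of the tumour necrosis factor family, had 52.4 and 51.5 in m and 19.1 and 17.6 in r1. SLCO4A1, an organic anion transporter, had 60.6 and 70.4 in m and 22.3 and 31.4 in r1, and HS3ST6, an enzyme that sulphates heparan sulphate, had 33.2 and 37.5 against 14.6 and 12.8. All of these had an r2 mean under both r1 pools, apart from PAPPA, whose r2 mean of 17.6 lay between them.

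On the r1 side, CCN3, a matricellular protein, had 48.3 and 58.6 in m, 114 and 129 in r1 and 36.6 in r2, so that r1 was highest. CRHBP, which binds corticotropin-releasing hormone, was also highest in r1, with 4.59 and 4.37 in m, 12.7 and 14.2 in r1 and 3.56 in r2. ERBB4, a receptor for neuregulins, had 4.84 and 3.09 in m and 14.3 and 14.6 in r1, with 5.10 in r2. PPARGC1A, a coactivator of mitochondrial genes, had 1.08 and 1.52 in m, 6.64 and 7.97 in r1 and 10.3 in r2 (log2 difference −2.50, standard error 0.45, limma adjusted p = 0.0834). SLC1A3, a glutamate transporter of glia, had 1.75 and 2.83 in m and 7.51 and 9.38 in r1, but its second probe set had a log2 difference of 0.02. The genes given on both sides are a part of those with the largest changes in that fit, chosen after their values were seen. Some with larger changes, such as ITGBL1 on the midbrain side and PDE1C on the r1 side, are left out.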

How the data were processed

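RNA of hand-dissected chick neural tube was amplified and hybridised by the authors to Affymetrix Chicken GeneChips. The deposited values are MAS5 signals, intensities on a linear scale in which mismatch probes adjust the perfect match probes, named in the submitters' processing notes. The authors deposited them for 38535 probe sets without scaling to a common level. Neither the detection flags nor the Cel files were analysed here, and all arrays differed from each other.

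Signals were expressed relative to the median of the 38439 probe sets on the same array other than AFFX controls, as in the global normalisation of the methods, and floored at the pooled 20th percentile before log2. The floor understates the change of genes near it. Symbols come from the platform annotation, with 27168 probe sets having 1 symbol, 177 several and 11094 none, and the RefSeq gene table used here holds 26853 of the single symbols. The test was that of limma 3.58.1 (R 4.3.3), using lmFit on 6 region means and then eBayes with a trend in intensity, which gave 6 residual and 6 prior degrees of freedom, and the code was tested on simulated data. The methods name a one-way ANOVA over the regions. It shares the spread over the regions in the same way, but not between probe sets as eBayes does. Only 2 arrays a region limit the precision of every value. The plots were made in Python 3.11.15 with matplotlib 3.10.9.

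Groups come from the sample titles. The members and gene lists were chosen with earlier results of these data known. Named were OTX2, GBX2 and FGF8, the 15 highest and 15 lowest log2 differences among the genes past the threshold whose pools do not overlap, and up to 4 members of each list past it. Other list members were named after their values were seen. The alternatives were other scalings, floors, filters, sets of arrays and variance models, the set as a block, and leaving out each array. No pairing by set number was detectable, and 0 of 15 pairs of regions had a correlation of deviations above 0.1. No sequences were shown.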

Additional observations from a re-analysis of the deposited data

How the results depend on the processing

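The 81 probe sets followed over the alternatives kept their direction in each of the 26 or 27 that kept them, and the other genes named were not followed. Most of the 81 were chosen with m and r1 pools that do not overlap. For these, leaving out 1 array cannot reverse the difference, and another variance model does not change its sign. Their constant direction is therefore no test of the difference. The number of probe sets past the threshold, 4 higher in m and 18 in r1, moved with the processing, and the cause was not tested. The counts (m, then r1) were 55 and 58 with only the 4 arrays of m and r1, 83 and 127 with those of m, r1 and r2, 35 and 69 without both r3 arrays and 119 and 177 with array weights. They were 2 and 1 with no scaling, so that 66.7% of 3 calls were higher in m against 18.2% of 22, 2 and 4 with no filter, 0 and 1 with no intensity trend (470 and 504 at an unadjusted p under 0.05), and 0 and 0 in a plain linear model (437 and 534 unadjusted). Quantile normalization gave 7 higher in m and a floor at the 40th percentile 26, with 27 and 22 in r1. Scaling to the 75th percentile gave 5 and 23, no floor 3 and 18, and the other filters 4 and 19.

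Leaving out 1 array gave 0 to 37 higher in m and 1 to 73 higher in r1. The counts were 0 and 1 without either m or either r1 array, 3 and 8 without either r2 array, 37 and 71 or 36 and 73 without set 1 or set 2 of r3, and 2 and 9 without either r5 array. With the set number as a replicate block there were 2 higher in m and 16 in r1, of which 2 and 15 are among the 4 and 18. The same numbers deviate together in none of 15 pairs of regions (correlations of −0.042 to 0.071, 0.042 for m with r1), so no pairing by set was detectable.

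Over the 81 named probe sets, 1709 values under an alternative kept their direction and their side of the threshold, 282 passed it only there and 193 passed it only in the 12-array fit. Counts and medians of the gene lists stayed close in 1433 cases and moved in 191. The floor limits what can be said of genes near it, such as the Hox genes.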
